A study of Mus musculus with 116 samples.

Results

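Early 2-cell mouse embryos were set against MII oocytes, the unfertilised eggs arrested in the second meiotic division, gene by gene in total RNA. Of 24083 gene symbols in the tables, 10675 reached 1 FPKM in either library and were compared (FPKM is a level per transcript length and per library size, a share of the library and not an amount per embryo). The embryo library held about 100 pooled wild-type early 2-cell embryos collected 36 h after hCG, and the oocyte library held about 100 pooled wild-type MII oocytes collected 13 h after hCG. Both came from 8-week-old females given PMSG and hCG, hormones that stimulate follicle growth and trigger ovulation, and both were made from total RNA after removal of ribosomal RNA. By the design text of the series, its wild-type embryos had C57BL/6N mothers and PWK fathers, so the embryos carried a paternal genome that the oocytes lacked. The study followed RNA polymerase II and gene activation through this period, and the comparison asks how the RNA of the embryo at the start of genome activation differed from that of the egg.

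Each stage had 1 library, so no difference below has a replicate check, and no test or error could be calculated. Differences are given on the log2(FPKM + 1) scale, which understates the fold of genes at a few FPKM. A typical gene stood lower in the early 2-cell library, with a median log2 ratio of -0.57 over 5310 genes at 5 FPKM or more in both libraries. The early 2-cell values were therefore also multiplied by 1.48, which sets that median to 0. "Aligned" differences use this factor and "unscaled" differences do not, and both describe shares of RNA. Every FPKM value printed is as deposited. "Higher" and "lower" counts are of genes at least 2-fold apart, a difference of 1 or more. Among the least abundant genes compared, Ifit1 entered with 1.00 FPKM in early 2-cell embryos and 0.217 FPKM in MII oocytes, and Rpl9 stayed just out, listed at 0 in early 2-cell embryos and at 0.99987 FPKM in MII oocytes. Genes were named by fixed rules of size and level. Astl, BB287469, Cdk1, Dppa2, Gadd45b, Gadd45g, Hdac3, Hist1h1c, Igf2bp2, Obox3, Polr2b, Tle6, Usp17la, Usp17ld, Yy1, Zfp352, Zp1, Zp2, Zp3, Zscan4c, Zscan4d and Zscan4f were chosen after their values were seen.

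A fully grown mouse oocyte makes almost no RNA, and the embryo starts with messenger RNA stored in the egg. After fertilisation stored messages are degraded in waves that begin during meiotic maturation, while others are lengthened at their poly(A) tail and translated. The embryo's own transcription starts weakly in the zygote and expands at the 2-cell stage, in mice first with multi-copy families such as Zscan4, Usp17l and the genes activated by the homeobox factor Dux. Transcripts of replication-dependent histones carry no poly(A) tail and end in a stem-loop, so methods that keep total RNA record them.

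The promoters of 6 genes that the 2-cell results turn on are shown so that the letters searched for motifs can be read beside the values. They run from 250 bases before to 50 after the gene's start, 5′ to 3′ on the gene's strand, from RefSeq on GRCm38.p6, which differs from the mm9 build of the deposited values. Capitals mark TGATTNAAT (part of the site bound by Dux), TAATCC (a site of bicoid-type homeobox factors such as the Obox family) and TATAAA (the TATA box), each found on either strand. TGATTNAAT and TAATCC can share letters on the same strand.
Zscan4c (chr7:11005495-11005794, + strand): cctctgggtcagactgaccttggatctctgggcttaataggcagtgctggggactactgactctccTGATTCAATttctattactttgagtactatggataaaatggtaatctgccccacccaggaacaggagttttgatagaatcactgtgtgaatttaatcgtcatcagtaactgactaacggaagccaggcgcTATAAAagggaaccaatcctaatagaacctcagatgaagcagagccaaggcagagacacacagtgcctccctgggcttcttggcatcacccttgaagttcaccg
Zscan4d (chr7:11166099-11166398, - strand): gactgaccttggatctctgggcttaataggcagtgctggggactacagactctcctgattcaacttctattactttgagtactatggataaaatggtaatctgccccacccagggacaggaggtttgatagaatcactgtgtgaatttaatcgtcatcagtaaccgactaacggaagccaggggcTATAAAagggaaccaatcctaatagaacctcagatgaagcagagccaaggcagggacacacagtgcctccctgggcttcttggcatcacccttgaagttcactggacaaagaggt
BB287469 (chr12:87816327-87816626, + strand): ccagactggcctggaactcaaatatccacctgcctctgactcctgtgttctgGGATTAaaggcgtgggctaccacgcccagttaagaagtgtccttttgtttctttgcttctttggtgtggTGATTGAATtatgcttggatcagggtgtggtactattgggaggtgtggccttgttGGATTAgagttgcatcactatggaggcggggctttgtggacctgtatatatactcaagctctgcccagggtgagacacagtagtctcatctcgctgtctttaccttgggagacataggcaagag
Zfp352 (chr4:90218570-90218869, + strand): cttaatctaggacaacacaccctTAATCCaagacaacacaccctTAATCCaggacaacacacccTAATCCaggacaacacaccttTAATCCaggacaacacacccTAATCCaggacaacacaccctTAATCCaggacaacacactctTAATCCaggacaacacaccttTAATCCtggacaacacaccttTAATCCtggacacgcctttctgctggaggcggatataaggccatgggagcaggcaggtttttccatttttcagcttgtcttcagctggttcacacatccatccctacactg
Usp17lc (chr7:103416446-103416745, + strand): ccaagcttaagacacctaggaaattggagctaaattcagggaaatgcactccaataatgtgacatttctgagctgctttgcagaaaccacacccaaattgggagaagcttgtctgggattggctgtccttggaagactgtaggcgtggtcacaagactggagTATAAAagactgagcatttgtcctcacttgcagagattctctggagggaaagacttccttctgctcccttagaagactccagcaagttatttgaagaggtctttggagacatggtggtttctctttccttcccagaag
Gm21312 (chr10:104176774-104177073, + strand): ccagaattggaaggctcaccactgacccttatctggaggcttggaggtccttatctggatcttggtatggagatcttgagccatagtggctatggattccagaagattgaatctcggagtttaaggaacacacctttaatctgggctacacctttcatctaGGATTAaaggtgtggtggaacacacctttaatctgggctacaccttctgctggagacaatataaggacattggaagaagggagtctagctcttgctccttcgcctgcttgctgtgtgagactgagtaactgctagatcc

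The Zscan4c window held 1 TGATTNAAT and 1 TATAAA match. The Zscan4d window was identical to it at 281 of 289 aligned bases and carried the substitution T9C in the TGATTNAAT match (Zscan4c base first, position counted from 1 at the 5′ end of the site, whose first base lies 184 bases before the gene's start, position -184 in the annotation). BB287469 held 1 TGATTNAAT and 2 TAATCC matches, Zfp352 held 9 TAATCC matches, Usp17lc 1 TATAAA and Gm21312 1 TAATCC. Over the 19 promoters found for genes of the 2-cell list, 5 held TGATTNAAT, 7 held TAATCC and 7 held TATAAA. Over all 27025 promoters of the same length, the shares were 0.84%, 8.14% and 15.7%. GGGCGG (an Sp/Klf-type GC box) was in 0 of the 19 and in 38.2% of all promoters. A match is a description of letters, and several of the 19 are near-identical copies of each other, such as BB287469 and Gm4027, the same at 258 of 259 aligned bases.

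Aligned, 918 of the 10675 genes (8.6%) were higher in early 2-cell embryos and 1597 (15%) were lower, while 8160 lay within 2-fold. Unscaled, the counts were 429 higher (4.02%) and 3075 lower (28.8%). The aligned and unscaled shares are the background for the list counts below. The share of higher genes among those that differed was thus 36.5% aligned and 12.2% unscaled. It was 25.5% when the median was set over genes at 20 FPKM or more in both (683 higher, 2000 lower), and 29.3% when both libraries were scaled to a sum of 1000000 (940 higher, 2265 lower). All 429 genes higher unscaled were among the 918, and all 1597 lower aligned were among the 3075. The middle 90% of aligned differences ran from -1.66 to 1.33. By comparison, the 2 ICM libraries, the series' replicated RNA group made by another protocol, lay at least 2-fold apart for 510 of 9983 genes (5.11%), with an SD of 0.59 over 4592 genes at a mean of 10 FPKM or more.

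**Figure D1:**
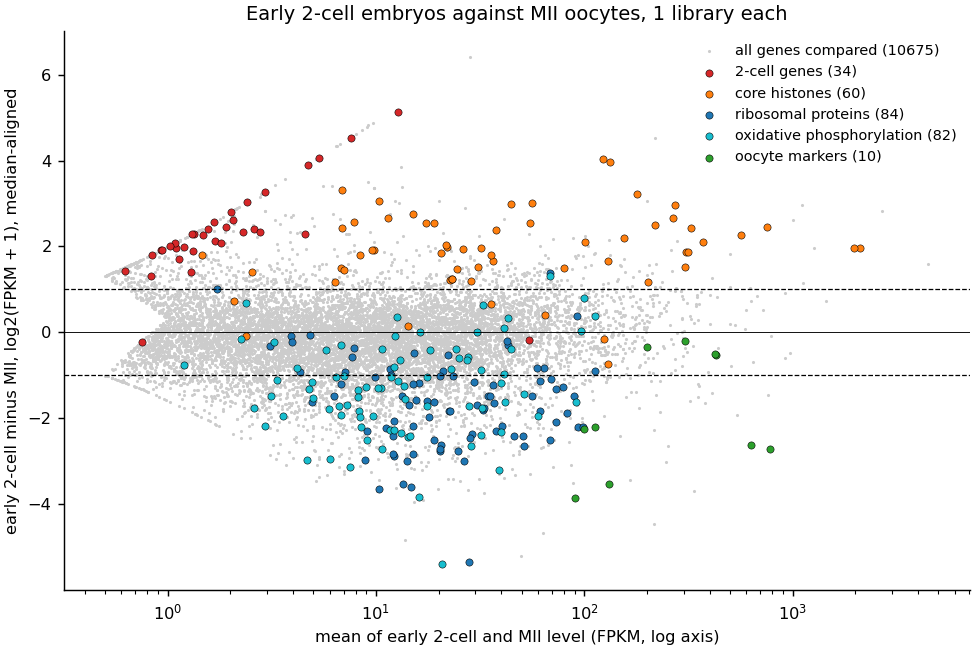
Difference between early 2-cell embryos and MII oocytes for each of the 10675 genes (vertical axis, aligned log2(FPKM + 1), early 2-cell minus MII) against its mean level in both libraries (horizontal axis, FPKM, log scale), with 1 point per gene and list genes in colour. Most core histones and 2-cell genes lie above the line at +1, and most ribosomal protein genes lie below the line at -1.

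Changes of 4-fold or more were fewer, with 171 genes higher and 318 lower aligned. At 10 FPKM or more in early 2-cell embryos and under 1 FPKM in MII oocytes stood 17 genes, against 41 genes for the opposite pattern. The higher genes were mostly weak in absolute level, with a median of 5.64 FPKM in early 2-cell embryos and 1.88 in MII oocytes. The lower genes had a median of 2.81 FPKM in early 2-cell embryos and 15.3 in MII oocytes. In the embryos 78 higher genes reached 100 FPKM, of which 20 were core histones and 6 were small RNAs. The 10 most abundant genes took 12.1% of all FPKM in the early 2-cell library and 4.80% in the MII library. The balance of calls differed with level. Of 2003 genes with a mean below 2 FPKM, 346 were higher and 182 lower aligned, while of 3657 genes between 5 and 20 FPKM, 176 were higher and 671 lower. Of the 408 genes at 100 FPKM or more, 66 were higher and 42 lower. The median aligned difference was -0.02, -0.21 and 0.19 in these bins.

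Genes known to be switched on at the 2-cell stage stood higher in the early 2-cell library. Of 42 genes of the 2-cell list in the tables, 34 reached 1 FPKM in either library, and 32 of these were higher, 0 lower, with a median aligned difference of 2.27. The corresponding background is 8.6% of all genes. Since 31 of the 34 passed the level filter through the early 2-cell library alone, they had to be higher there, and the count is a description. Over all 42 genes, with no filter, the median was 2.05. The list was chosen with these results known.

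Their level was low. All genes of the list together took 0.0907% of the FPKM of early 2-cell embryos and 0.0262% of that of MII oocytes. At 1 FPKM or more stood 3 of the 42 in MII oocytes, 7 in PN5 zygotes, 33 in early 2-cell embryos, and 37 in each of the late 2-cell libraries. Dux, the homeobox factor that opens this programme in mouse, stood at 25.4 FPKM in early 2-cell embryos and 0.105 FPKM in MII oocytes, an aligned difference of 5.13, the largest of the list. Zscan4c, of a family that maintains telomeres in mouse stem cells, stood at 4.70 FPKM in early 2-cell embryos and 0.499 FPKM in MII oocytes. Its neighbours Zscan4d (4.90 FPKM in early 2-cell embryos, 0.648 FPKM in MII oocytes) and Zscan4f (4.16 FPKM in early 2-cell embryos, 0.419 FPKM in MII oocytes) lay close to it. Reads of these near-identical copies could have been split between them, so the 3 values are uncertain.

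Zfp352, a zinc finger gene, stood at 4.82 FPKM in early 2-cell embryos and was listed at 0 in MII oocytes. The deubiquitinase copy Usp17lc stood at 10.6 FPKM in early 2-cell embryos and was listed at 0 in MII oocytes, as were Usp17ld at 5.85 and Usp17la at 4.04 FPKM in early 2-cell embryos. BB287469, an Eif1a-like copy, stood at 2.17 FPKM in early 2-cell embryos and was listed at 0 in MII oocytes. Tmem92, a membrane protein gene, stood at 7.58 FPKM in early 2-cell embryos and 1.51 FPKM in MII oocytes, so it was already recorded in the egg. In all, 11 of the 34 measured members were listed at 0 in MII oocytes. A listed 0 can be a failed estimate, and no fold is given for these genes.

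Not every member of the list differed. AA792892 stood at 40.7 FPKM in early 2-cell embryos and 68.3 FPKM in MII oocytes, an aligned difference of -0.17. Trim43c stood at 0.495 FPKM in early 2-cell embryos and 1.02 FPKM in MII oocytes. The other 8 genes, among them Tcstv1 and Tcstv3, the Tdpoz family members Tdpoz1, Tdpoz2 and Tdpoz5, and the nucleolar factor relative Ubtfl1, stayed below 1 FPKM in both libraries. Tcstv3, a 2-cell marker in mouse, was listed at 0 in both.

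The 15 genes with the largest increases that reached 10 FPKM in either library, small RNAs aside, were dominated by multi-copy genes. After Dux, the next were Gm21293 (19.4 FPKM in early 2-cell embryos, 0.0175 FPKM in MII oocytes), Gm21312 (18.1 FPKM in early 2-cell embryos, 0.0171 FPKM in MII oocytes) and Gm21304 (17.1 FPKM in early 2-cell embryos, 0.0175 FPKM in MII oocytes). Gm8764, Gm20765 and Gm6763 followed at 16.1, 15.5 and 15.2 FPKM in early 2-cell embryos, each at 0.0171 or 0.0175 FPKM in MII oocytes. These 6 genes and Gm4340 lie next to each other in the RefSeq gene order, a run of 7, and the promoters of the Gm21312 copies that have an entry match the one shown at 299 of 300 bases. Reads of such near-identical copies could have been split between them, so the single values are uncertain.

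Further members of the 15 were Bfsp1, which encodes a filament protein of the eye lens, at 13.5 FPKM in early 2-cell embryos and listed at 0 in MII oocytes. Gm8994 stood at 13.0 FPKM in early 2-cell embryos and Gm4312 and Gm4301 both at 10.4 FPKM, and all 3 were listed at 0 in MII oocytes. In all, 23 of the higher genes share an identical pair of values with another gene, as Gm4312 and Gm4301 do. The aligned difference of Gm4312 and of Gm4301 was 4.03 with rows of a shared symbol summed and 3.12 with the highest row alone. Gm11237 stood at 18.0 FPKM in early 2-cell embryos and 1.71 FPKM in MII oocytes. The histone copies Hist1h4j (226 FPKM in early 2-cell embryos, 19.4 FPKM in MII oocytes) and Hist1h4k (244 FPKM in early 2-cell embryos, 22.1 FPKM in MII oocytes) stood apart from the rest because they were present in the egg and abundant in the embryo.

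**Figure D2:**
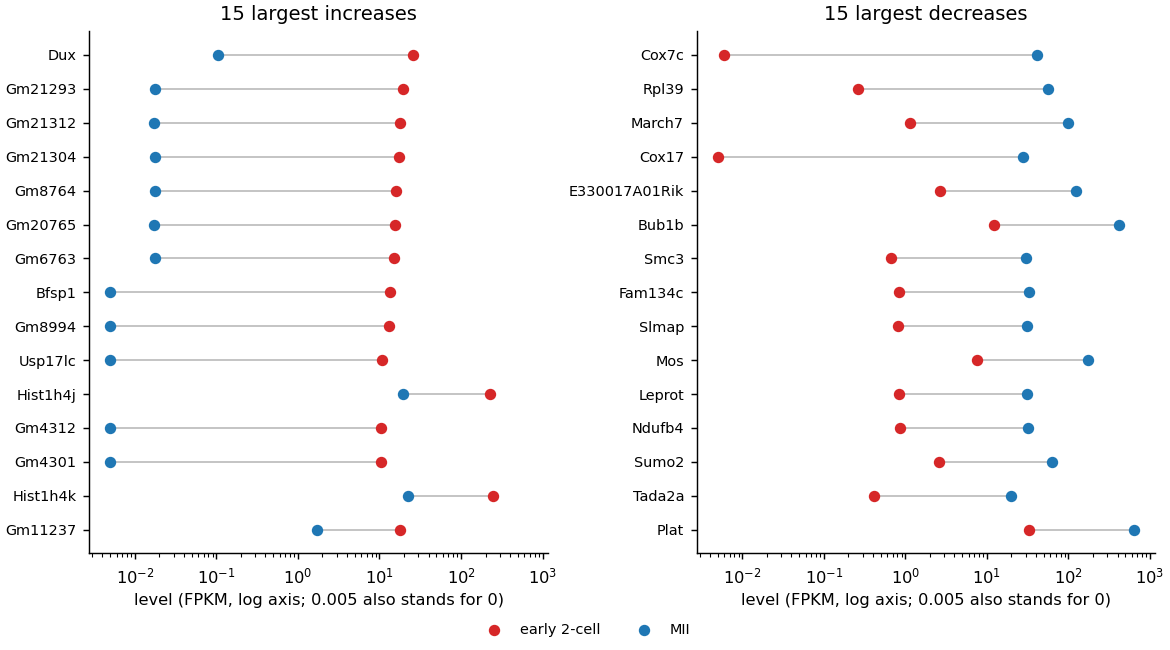
The 15 genes that rose most (left) and the 15 that fell most (right), small RNAs aside, with the level in early 2-cell embryos and in MII oocytes (horizontal axis, FPKM, log scale, 1 point per library, values of 0 drawn at 0.005). Dux stands at 25.4 FPKM in early 2-cell embryos and 0.105 FPKM in MII oocytes, and Bub1b at 12.2 FPKM in early 2-cell embryos and 422 FPKM in MII oocytes.

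The 15 largest decreases covered diverse functions. Bub1b, the spindle checkpoint kinase, stood at 12.2 FPKM in early 2-cell embryos and 422 FPKM in MII oocytes, an aligned difference of -4.46. March7, a ubiquitin ligase, stood at 1.13 FPKM in early 2-cell embryos and 97.9 FPKM in MII oocytes. Smc3, a subunit of the cohesin ring that holds sister chromatids together, stood at 0.669 FPKM in early 2-cell embryos and 29.8 FPKM in MII oocytes. Each stood at a small share of its level in the egg.

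Sumo2, a small protein modifier, stood at 2.56 FPKM in early 2-cell embryos and 63.5 FPKM in MII oocytes, and Tada2a, a subunit of histone acetyltransferase complexes, at 0.409 FPKM in early 2-cell embryos and 19.9 FPKM in MII oocytes. Sumo2 was listed at 0 in the PN5 library and in both late 2-cell libraries, so its values are uncertain. E330017A01Rik, Fam134c, Slmap and Leprot were also among the 15, with 0.824 to 2.63 FPKM in early 2-cell embryos and 31.0 to 124 FPKM in MII oocytes. The most extreme were short genes of the respiratory chain and ribosome. Cox7c stood at 0.0059 FPKM in early 2-cell embryos and 41.5 FPKM in MII oocytes, and Rpl39 at 0.265 FPKM in early 2-cell embryos and 55.8 FPKM in MII oocytes. Cox17, a copper chaperone of cytochrome oxidase, was listed at 0 in early 2-cell embryos and stood at 27.5 FPKM in MII oocytes. Rpl39 and Cox7c have processed pseudogenes, so their single values are uncertain.

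Factors proposed to start genome activation moved in both directions. Of 18 measured genes of this list, 4 were higher and 2 lower aligned, 1 higher and 2 lower unscaled, and the median was 0.42 aligned and -0.13 unscaled, so its sign depends on the scaling. Klf5 and Obox3, 2 of the higher genes, passed the level filter through the early 2-cell library alone, and 1 gene passed through the MII library alone. The counts are therefore a description. Klf5, a factor of early lineage formation, stood at 2.88 FPKM in early 2-cell embryos and 0.0499 FPKM in MII oocytes, the largest increase of the list. Yy1 (5.82 FPKM in early 2-cell embryos, 2.87 FPKM in MII oocytes) and Obox3 (1.24 FPKM in early 2-cell embryos, 0.353 FPKM in MII oocytes) were also higher aligned, and neither was unscaled. Pou5f1, the pluripotency factor Oct4, stood at 252 FPKM in early 2-cell embryos and 147 FPKM in MII oocytes, an aligned difference of 1.34 and an unscaled difference of 0.78.

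The CCAAT-binding subunit Nfya went the other way, with 40.3 FPKM in early 2-cell embryos and 179 FPKM in MII oocytes, an aligned difference of -1.57. Dppa2, an activator of Dux in mouse stem cells, stood at 10.0 FPKM in early 2-cell embryos and 31.8 FPKM in MII oocytes. Obox5 (325 FPKM in early 2-cell embryos, 299 FPKM in MII oocytes), Klf17 (227 FPKM in early 2-cell embryos, 187 FPKM in MII oocytes) and Obox1 (166 FPKM in early 2-cell embryos, 317 FPKM in MII oocytes) were abundant in both libraries and did not reach 2-fold.

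Of the genes of the immediate early and stress response, 8 of 18 measured were higher and 0 lower aligned, and 6 and 0 unscaled. The backgrounds are 8.6% and 4.02% higher. The median of the 18 was 0.87 aligned, and over all 31 genes, with no filter, it was 0.51. Of the 18, 7 passed the level filter through the early 2-cell library alone. Cdkn1a, the p53-induced cell cycle inhibitor p21, stood at 5.49 FPKM in early 2-cell embryos and 0.0378 FPKM in MII oocytes. The growth arrest genes Gadd45b (7.23 FPKM in early 2-cell embryos, 0.759 FPKM in MII oocytes) and Gadd45g (3.25 FPKM in early 2-cell embryos, listed at 0 in MII oocytes) were higher as well. Dusp1, a MAP kinase phosphatase, stood at 66.0 FPKM in early 2-cell embryos and 38.5 FPKM in MII oocytes. Jund, a subunit of the AP-1 factor, stood at 11.2 FPKM in early 2-cell embryos and 3.78 FPKM in MII oocytes. The immediate early gene Egr1 was within 2-fold, at 5.09 FPKM in early 2-cell embryos and 6.78 FPKM in MII oocytes.

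Mdm2, which marks p53 for degradation, stood at 24.8 FPKM in early 2-cell embryos and 42.9 FPKM in MII oocytes, and the apoptosis gene Bax at 13.9 FPKM in early 2-cell embryos and 13.3 FPKM in MII oocytes. The p53 targets of the list thus differed among themselves, with Cdkn1a far above and Mdm2 and Bax within 2-fold.

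Replication-dependent core histones stood higher across nearly the whole family. Of 60 measured core histone genes, 53 were higher and 0 lower aligned, and 40 higher and 1 lower unscaled, with a median of 1.94 aligned and 1.39 unscaled. They took 6.84% of all FPKM in early 2-cell embryos and 1.84% in MII oocytes with rows of a shared symbol summed. With the highest row alone, the shares were 5.27% and 1.38%. Of the 60 genes, 59 passed the filter in both libraries, so the count does not rest on the filter.

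The classes differed in size of change, with median aligned differences of 1.93 for H2A, 1.24 for H2B, 2.40 for H3 and 2.51 for H4. The summed FPKM of H4 genes was 4170 in early 2-cell embryos and 1034 in MII oocytes, a ratio of 4.03. H3 genes summed to 2848 FPKM in early 2-cell embryos and 907 FPKM in MII oocytes, a ratio of 3.14. H2A genes summed to 6451 FPKM in early 2-cell embryos and 2574 FPKM in MII oocytes, a ratio of 2.51. H2B genes summed to 1082 FPKM in early 2-cell embryos and 796 FPKM in MII oocytes, a ratio of 1.36. Aligned, 13 of 13 H4, 12 of 12 H3, 15 of 17 H2A and 13 of 18 H2B genes were higher, and unscaled 13, 11, 12 and 4. H2B had the lowest ratio and the lowest median of the 4 classes. The ratio of the H2A sums rests mostly on Hist2h2aa1 and Hist2h2aa2, and that of H2B includes the germ-cell copy Hist1h2ba, which was lower unscaled. Copies of a class can share reads, so values of single copies are uncertain.

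Hist2h2aa1 contributed most to H2A, with 3052 FPKM in early 2-cell embryos and 1152 FPKM in MII oocytes. Its near-equal copy Hist2h2aa2 stood at 2848 FPKM in early 2-cell embryos and 1075 FPKM in MII oocytes. This pair made up most of the H2A sums and a large part of the family's share of FPKM. Hist1h4c, an H4 copy, stood at 1189 FPKM in early 2-cell embryos and 321 FPKM in MII oocytes, and Hist1h3f at 866 FPKM in early 2-cell embryos and 266 FPKM in MII oocytes. The largest decrease in the list was Hist1h2ba, the germ-cell form of H2B, with 75.2 FPKM in early 2-cell embryos and 185 FPKM in MII oocytes, an aligned difference of -0.73 that is within 2-fold and the 1 lower gene unscaled.

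**Figure D3:**
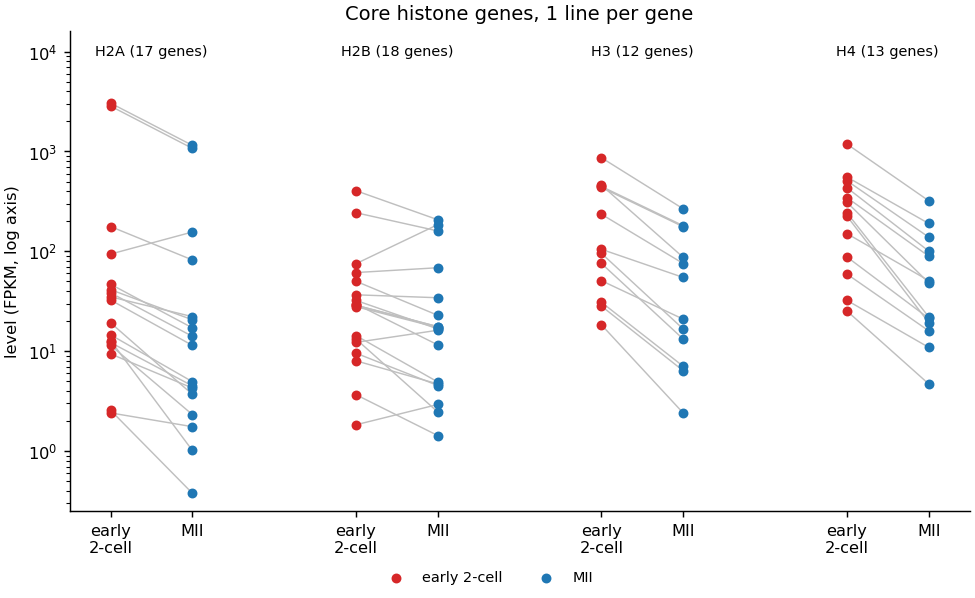
Level of each of the 60 measured core histone genes in the early 2-cell and the MII library (vertical axis, FPKM as deposited, log scale), by class, with 1 line per gene. Lines run down to MII for every H3 and H4 gene, and some H2B lines run up, as for Hist1h2ba (75.2 FPKM in early 2-cell embryos, 185 FPKM in MII oocytes).

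Among linker histones and variants, 7 of 18 measured genes were higher and 2 lower aligned, 4 and 3 unscaled. The somatic linker histone Hist1h1a stood at 4419 FPKM in early 2-cell embryos and 925 FPKM in MII oocytes, the second most abundant gene of the embryo library. The oocyte linker histone H1foo stood at 125 FPKM in early 2-cell embryos and 1138 FPKM in MII oocytes, an aligned difference of -2.61. The egg and embryo libraries were thus led by different linker histones. Hist1h1c (48.2 FPKM in early 2-cell embryos, 14.2 FPKM in MII oocytes) was higher as well. H3f3a and H3f3b, which both encode the replacement histone H3.3, differed in direction: H3f3a stood at 72.9 FPKM in early 2-cell embryos and 221 FPKM in MII oocytes, and H3f3b at 239 FPKM in early 2-cell embryos and 218 FPKM in MII oocytes. Slbp, the protein that binds the histone stem-loop, stood at 323 FPKM in early 2-cell embryos and 264 FPKM in MII oocytes.

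Small noncoding RNAs also took a higher share in early 2-cell embryos. Of 205 measured symbols among 1220 in the tables, 137 were higher and 25 lower aligned, 119 and 32 unscaled, with a median of 1.52 aligned, and together, Rn45s included, they took 2.89% of FPKM in early 2-cell embryos and 0.73% in MII oocytes. Of the 205, 105 passed the filter through the early 2-cell library alone. Rpph1, the RNA of ribonuclease P, stood at 1611 FPKM in early 2-cell embryos and 389 FPKM in MII oocytes. Rprl3, a relative of Rpph1, was the largest increase of the list, with 56.9 FPKM in early 2-cell embryos and listed at 0 in MII oocytes. Rmrp, the RNA of a related enzyme that processes ribosomal RNA, stood at 67.6 FPKM in early 2-cell embryos and 15.2 FPKM in MII oocytes.

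The box C/D snoRNA Snord17 stood at 412 FPKM in early 2-cell embryos and 25.5 FPKM in MII oocytes, and the Cajal body RNA Scarna2 at 157 FPKM in early 2-cell embryos and 65.0 FPKM in MII oocytes. Terc, the telomerase RNA, stood at 38.0 FPKM in early 2-cell embryos and 22.8 FPKM in MII oocytes. The microRNA symbols with the largest increases were Mir1938 (18.4 FPKM in early 2-cell embryos) and Mir8109 (12.9 FPKM in early 2-cell embryos), both listed at 0 in MII oocytes. The largest decrease was Mir684-1, listed at 0 in early 2-cell embryos and at 7.41 FPKM in MII oocytes, followed by Mir686 at 1.29 FPKM in early 2-cell embryos and 23.6 FPKM in MII oocytes. Mir5116 and Mir8098 came next, listed at 0 in early 2-cell embryos and at 6.19 and 4.51 FPKM in MII oocytes. A library of long fragments records precursors or host transcripts under such symbols, not mature microRNAs.

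Remaining ribosomal RNA differed between the libraries in the direction of these groups. Rn45s, the ribosomal RNA precursor, stood at 1874 FPKM in early 2-cell embryos and 353 FPKM in MII oocytes, 0.881% and 0.122% of FPKM. Lars2, a gene whose rows often collect ribosomal reads, stood at 340 FPKM in early 2-cell embryos and 59.8 FPKM in MII oocytes. The part of remaining ribosomal RNA in the histone and small RNA differences was not tested.

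Of 40 measured genes of the meiotic and mitotic cycle list, 2 were higher and 7 lower aligned, and 0 and 12 unscaled, with a median of -0.18 aligned and -0.73 unscaled. Both shares of lower genes lie near the background of 15% aligned and 28.8% unscaled. Bub1b and Mos, the kinase that holds the egg in metaphase, were the extremes, and Mos stood at 7.46 FPKM in early 2-cell embryos and 173 FPKM in MII oocytes. Cdk1, the mitotic kinase, stood at 3.49 FPKM in early 2-cell embryos and 16.8 FPKM in MII oocytes. Its partner cyclin Ccnb1 stood at 146 FPKM in early 2-cell embryos and 232 FPKM in MII oocytes, within 2-fold aligned. Pttg1, which encodes securin, stood at 413 FPKM in early 2-cell embryos and 318 FPKM in MII oocytes, and Birc5, the chromosomal passenger survivin, at 144 FPKM in early 2-cell embryos and 243 FPKM in MII oocytes. Map2k1, the kinase that acts below Mos, was higher aligned, with 202 FPKM in early 2-cell embryos and 112 FPKM in MII oocytes. Unscaled, Map2k1 differed by 0.85, within 2-fold.

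Oocyte identity genes differed widely among themselves. Of 36 measured, 12 were lower and 2 higher aligned, 19 lower and 0 higher unscaled, with a median of -0.48 aligned and a middle 50% from -1.83 to 0.58. Gdf9, a growth factor that signals to cumulus cells, stood at 144 FPKM in early 2-cell embryos and 1411 FPKM in MII oocytes, where it was the second most abundant gene. Its relative Bmp15 stood at 274 FPKM in early 2-cell embryos and 582 FPKM in MII oocytes, within 2-fold aligned. The coat protein genes Zp1 (14.1 FPKM in early 2-cell embryos, 250 FPKM in MII oocytes), Zp2 (28.5 FPKM in early 2-cell embryos, 197 FPKM in MII oocytes) and Zp3 (24.2 FPKM in early 2-cell embryos, 175 FPKM in MII oocytes) were all lower. Astl, the protease that cleaves ZP2 after fertilisation, stood at 11.7 FPKM in early 2-cell embryos and 115 FPKM in MII oocytes.

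Other oocyte genes stood within 2-fold or higher aligned. Bcl2l10, an anti-apoptotic protein gene, stood at 1346 FPKM in early 2-cell embryos and 905 FPKM in MII oocytes, an aligned difference of 1.14. Tcl1, a co-activator of AKT needed for cleavage in mouse, stood at 739 FPKM in early 2-cell embryos and 607 FPKM in MII oocytes, and Rfpl4 at 459 FPKM in early 2-cell embryos and 602 FPKM in MII oocytes. The spread within this list was therefore wider than its median, from Plat (32.8 FPKM in early 2-cell embryos, 642 FPKM in MII oocytes, aligned -3.69) to Tcl1b4 (114 FPKM in early 2-cell embryos, 60.4 FPKM in MII oocytes, aligned 1.47).

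Another list held genes of the subcortical maternal complex, a lattice under the egg membrane that early cleavage needs, and related Nlrp genes. Of 22 measured, 4 were lower (18.2%) and 1 higher aligned, and 9 and 1 unscaled. The share lower aligned lies near the background of 15%, and the unscaled background is 28.8%. Zbed3, a member of that complex in mouse, was the most abundant gene of both libraries, with 6021 FPKM in early 2-cell embryos and 2951 FPKM in MII oocytes, an aligned difference of 1.60. Padi6, which is needed for the lattices, stood at 162 FPKM in early 2-cell embryos and 914 FPKM in MII oocytes, and Tle6 at 117 FPKM in early 2-cell embryos and 530 FPKM in MII oocytes. Nlrp14 stood at 136 FPKM in early 2-cell embryos and 571 FPKM in MII oocytes, and Nlrp2 at 7.41 FPKM in early 2-cell embryos and 46.9 FPKM in MII oocytes. Ooep, which binds Tle6 in the complex, stood within 2-fold aligned, at 302 FPKM in early 2-cell embryos and 579 FPKM in MII oocytes. Messages of proteins of the same complex thus differed in direction.

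Proteins that store maternal messages had 9 of 32 measured genes lower (28.1%) and 0 higher aligned, and 14 and 0 unscaled. The backgrounds are 15% and 28.8% lower. Gtsf1, a piRNA pathway factor, stood at 6.52 FPKM in early 2-cell embryos and 103 FPKM in MII oocytes. Lsm14b, which represses stored messages, stood at 165 FPKM in early 2-cell embryos and 652 FPKM in MII oocytes, and Igf2bp2 at 27.6 FPKM in early 2-cell embryos and 167 FPKM in MII oocytes. Eif4e1b, the oocyte cap-binding protein, stood at 667 FPKM in early 2-cell embryos and 598 FPKM in MII oocytes, and Ybx2, the germ-cell Y-box protein, at 241 FPKM in early 2-cell embryos and 194 FPKM in MII oocytes. Both were within 2-fold.

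Factors that remove messages had 8 of 40 measured genes lower and 1 higher aligned, and 19 and 0 unscaled, against backgrounds of 15% and 28.8% lower. Btg4, which recruits the deadenylase to maternal messages, stood at 711 FPKM in early 2-cell embryos and 736 FPKM in MII oocytes. Dcp1a, an activator of decapping, stood at 72.4 FPKM in early 2-cell embryos and 284 FPKM in MII oocytes, and the CCR4-NOT subunit Cnot2 at 4.20 FPKM in early 2-cell embryos and 26.0 FPKM in MII oocytes. Pabpn1l, an oocyte poly(A)-binding protein, stood at 59.3 FPKM in early 2-cell embryos and 196 FPKM in MII oocytes. Zfp36l2, which binds AU-rich elements, was the 1 higher gene aligned, with 9.40 FPKM in early 2-cell embryos and 6.19 FPKM in MII oocytes.

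Chromatin regulators mostly stayed within 2-fold, with 0 of 51 measured genes higher and 2 lower aligned, and 0 and 10 unscaled. The median was 0.12 aligned and -0.44 unscaled, a change of sign with the scaling. The lower genes were Dnmt1, the maintenance DNA methyltransferase, at 60.9 FPKM in early 2-cell embryos and 307 FPKM in MII oocytes, and Hdac3, a histone deacetylase, at 1.52 FPKM in early 2-cell embryos and 6.51 FPKM in MII oocytes. Uhrf1, which brings DNMT1 to hemimethylated DNA, stood at 224 FPKM in early 2-cell embryos and 336 FPKM in MII oocytes, an aligned difference of -0.01. Zfp57, which protects imprints, stood at 1026 FPKM in early 2-cell embryos and 809 FPKM in MII oocytes. Tet3, which oxidises methylated cytosine in the zygote, stood at 168 FPKM in early 2-cell embryos and 309 FPKM in MII oocytes, and Dppa3, which shields maternal methylation, at 190 FPKM in early 2-cell embryos and 342 FPKM in MII oocytes.

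RNA polymerase II subunits, general factors and Mediator had 3 of 86 measured genes higher and 29 lower aligned, and 0 and 44 unscaled. The share lower aligned was 33.7%, against backgrounds of 15% aligned and 28.8% unscaled, and the median was -0.62 aligned. Polr2b, the second largest subunit of the enzyme, stood at 4.15 FPKM in early 2-cell embryos and 28.7 FPKM in MII oocytes. Polr2d, a stalk subunit, stood at 24.3 FPKM in early 2-cell embryos and 165 FPKM in MII oocytes, and Polr2k, the smallest, at 2.73 FPKM in early 2-cell embryos and 37.5 FPKM in MII oocytes. Polr2c, a subunit of the platform on which the enzyme assembles, stood at 185 FPKM in early 2-cell embryos and 134 FPKM in MII oocytes and was 1 of the 3 higher genes, with an aligned difference of 1.03. Gtf2b, the initiation factor TFIIB, stood at 43.4 FPKM in early 2-cell embryos and 133 FPKM in MII oocytes. Subunits of the polymerase thus did not move together.

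Pausing and elongation factors had 2 of 32 measured genes higher and 3 lower aligned, and 1 and 12 unscaled, with a median of -0.20 aligned and -0.67 unscaled. Hexim1, which holds the pause-release kinase P-TEFb inactive, stood at 4.01 FPKM in early 2-cell embryos and 0.0762 FPKM in MII oocytes. Mepce, which caps the 7SK RNA of the same particle, stood at 72.5 FPKM in early 2-cell embryos and 61.4 FPKM in MII oocytes. Leo1, a subunit of the PAF1 complex, stood at 1.10 FPKM in early 2-cell embryos and 16.5 FPKM in MII oocytes. Nelfa, a subunit of the pausing factor NELF, stood at 41.6 FPKM in early 2-cell embryos and 70.2 FPKM in MII oocytes, and Supt16, a histone chaperone of elongation, at 30.0 FPKM in early 2-cell embryos and 38.0 FPKM in MII oocytes.

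Broad decreases lay in the machinery of protein synthesis and energy supply. Ribosomal protein genes had 63 of 84 measured lower and 2 higher aligned, and 74 and 0 unscaled, with a median of -1.62 aligned. They took 0.49% of FPKM in early 2-cell embryos and 1.46% in MII oocytes. Of the 84, 5 passed the filter through the MII library alone. Rpl41, the shortest ribosomal protein, stood at 24.9 FPKM in early 2-cell embryos and 173 FPKM in MII oocytes, Rpl32 at 25.3 FPKM in early 2-cell embryos and 140 FPKM in MII oocytes, and Rpl7a at 34.5 FPKM in early 2-cell embryos and 144 FPKM in MII oocytes. Rps2 stood within 2-fold, with 86.3 FPKM in early 2-cell embryos and 98.2 FPKM in MII oocytes. Rplp2, a stalk protein, was higher aligned, with 87.8 FPKM in early 2-cell embryos and 49.7 FPKM in MII oocytes. Many ribosomal protein genes have near-identical pseudogenes, so single values are uncertain.

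Oxidative phosphorylation genes had 52 of 82 measured lower and 1 higher aligned, and 61 and 0 unscaled, with a median of -1.29 aligned, and took 0.47% of FPKM in early 2-cell embryos and 0.87% in MII oocytes. The level filter was passed through the MII library alone by 10 of the 82, which had to be lower in early 2-cell embryos unscaled. Cox5a, a cytochrome oxidase subunit, stood at 17.4 FPKM in early 2-cell embryos and 102 FPKM in MII oocytes, and Atp5e, a small ATP synthase subunit, at 32.7 FPKM in early 2-cell embryos and 151 FPKM in MII oocytes. The ATP synthase subunit genes Atp5b and Atp5a1 were within 2-fold: Atp5b stood at 106 FPKM in early 2-cell embryos and 120 FPKM in MII oocytes, and Atp5a1 at 79.2 FPKM in early 2-cell embryos and 115 FPKM in MII oocytes. Cox8a was the 1 higher gene aligned, with 86.4 FPKM in early 2-cell embryos and 51.1 FPKM in MII oocytes.

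Mitochondrial ribosomal proteins had 33 of 76 measured lower and 1 higher aligned, and 50 and 0 unscaled, with a median of -0.89 aligned, and 19 of the 76 passed the filter through the MII library alone. Mrps22, of the small subunit, stood at 0.722 FPKM in early 2-cell embryos and 24.3 FPKM in MII oocytes. Proteasome genes had 22 of 42 measured lower and 3 higher aligned, and 30 and 2 unscaled, with a median of -1.07 aligned. The filter was passed through the early 2-cell library alone by 2 of the 42, and through the MII library alone by 1. Psma2, of the core ring, stood at 22.3 FPKM in early 2-cell embryos and 107 FPKM in MII oocytes, while Psme3, a nuclear activator, stood at 102 FPKM in early 2-cell embryos and 137 FPKM in MII oocytes. The immunoproteasome subunit Psmb9 went the other way, at 1.53 FPKM in early 2-cell embryos and listed at 0 in MII oocytes. Together the ribosomal, mitochondrial ribosomal, respiratory and proteasome lists held 170 of the 1597 lower genes (10.6%) and 2.66% of all genes compared.

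Translation factors had 18 of 61 measured lower and 1 higher aligned, and 30 and 0 unscaled. Eif3l, of the initiation complex, stood at 1.72 FPKM in early 2-cell embryos and 31.5 FPKM in MII oocytes, and Eef1a1, which delivers aminoacyl-tRNA, at 211 FPKM in early 2-cell embryos and 401 FPKM in MII oocytes. Chaperones had 12 of 34 lower and 3 higher aligned, and 22 and 0 unscaled. Hspa8, the constitutive Hsp70, stood at 9.21 FPKM in early 2-cell embryos and 166 FPKM in MII oocytes, and Hsp90aa1, the inducible form of Hsp90, at 72.3 FPKM in early 2-cell embryos and 388 FPKM in MII oocytes. The constitutive Hsp90ab1 stood at 93.7 FPKM in early 2-cell embryos and 92.0 FPKM in MII oocytes. Paralogues of 1 chaperone thus differed.

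**Figure D4:**
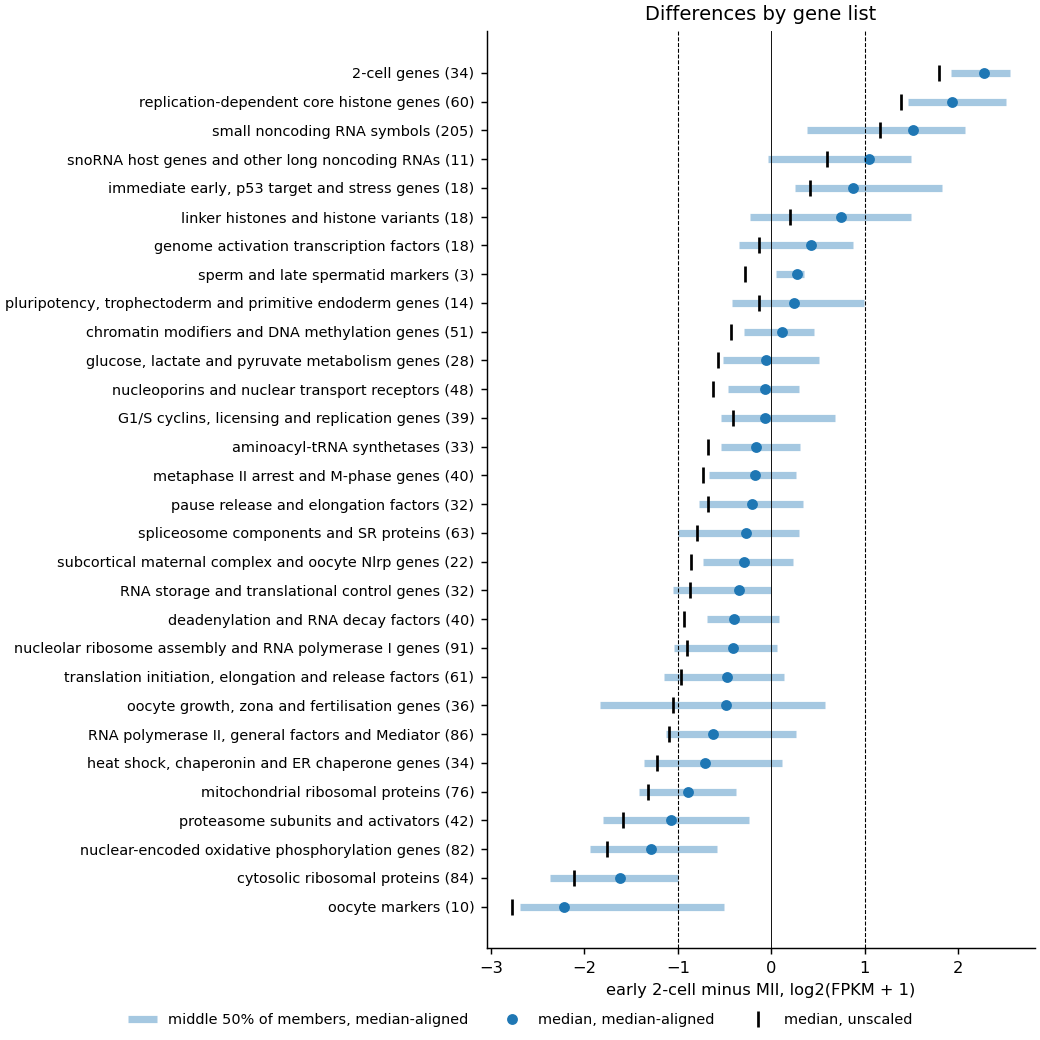
Median difference of each gene list between early 2-cell embryos and MII oocytes (horizontal axis, log2(FPKM + 1), early 2-cell minus MII), aligned and unscaled, with a band for the middle 50% of the aligned values and the number of measured genes in brackets. The 2-cell, core histone and small RNA lists lie highest, at 2.27, 1.94 and 1.52 aligned, and the ribosomal protein list lowest of the pathway lists, at -1.62.

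Levels at the other stages are set beside these, each normalized separately and from other tables, with no comparison. Zfp352 stood at 0 in MII oocytes, 0.241 FPKM in PN5 zygotes, 4.82 FPKM in early 2-cell embryos and 95.7 FPKM in control late 2-cell embryos. Klf5 stood at 0.0499, 0.720, 2.88 and 41.5 FPKM in the same order, and Hexim1 at 0.0762, 0.576, 4.01 and 55.9 FPKM. The late 2-cell control came from zygotes taken 23 h after hCG and kept in 0.1% DMSO for 14 h and then in plain culture for 12 h. Dux was listed at 0.105, 2.24, 25.4 and 0.991 FPKM in the order MII, PN5, early 2-cell and late 2-cell control, and as a multi-copy gene its values in the other tables are uncertain.

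Mos stood at 173 FPKM in MII oocytes, 15.0 FPKM in PN5 zygotes, 7.46 FPKM in early 2-cell embryos and 3.50 FPKM in control late 2-cell embryos, and Bub1b at 422, 55.4, 12.2 and 18.0 FPKM in that order. Padi6 stood at 914, 456, 162 and 65.4 FPKM, and Dnmt1 at 307, 212, 60.9 and 47.4 FPKM. The higher genes as a group had median levels of 1.88 FPKM in MII oocytes, 1.34 in PN5 zygotes, 5.64 in early 2-cell and 12.0 in control late 2-cell embryos. The lower genes had medians of 15.3, 10.1, 2.81 and 7.81 FPKM. Ribosomal protein genes had a median of 35.0 FPKM in MII oocytes, 1.12 in PN5 zygotes, 6.20 in early 2-cell embryos, 4.23 in control late 2-cell embryos, and 229 and 150 FPKM in the ICM libraries, which were made by a method that selects polyadenylated RNA. In the PN5 and late 2-cell libraries some multi-copy genes, such as Gm6763 and Gm4340, are listed at 0. Of 3585 genes at 10 FPKM or more in both early 2-cell embryos and MII oocytes, 54 were below 1 FPKM in PN5 and late 2-cell libraries. Of the 54, 6 were core histones, and the copy number of the 54 was not examined. No order of stages can be read for such genes.

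**Figure D5:**
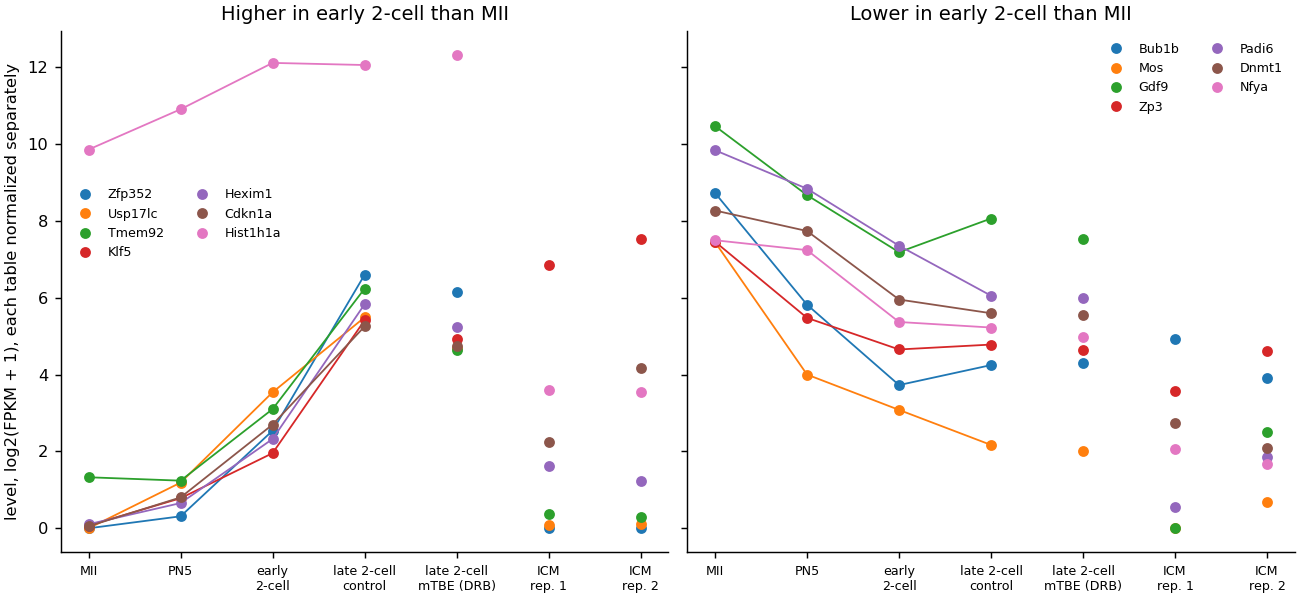
Levels of 7 higher genes (left) and 7 lower genes (right) by stage, with lines from MII through PN5 and early 2-cell to the late 2-cell control, and separate points for the late 2-cell mTBE library (zygotes kept in the transcription inhibitor DRB) and both ICM libraries (vertical axis, log2(FPKM + 1), 1 library per point). Zfp352 reaches 95.7 FPKM in control late 2-cell embryos, and Mos stands at 173 FPKM in MII oocytes and 7.46 FPKM in early 2-cell embryos.

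The labels were checked against markers of the cells and of others that a sample could hold. All 10 oocyte markers were measured in both libraries and 6 were lower in early 2-cell embryos, 0 higher, with a median of -2.22 aligned. Their summed level was 1256 FPKM in early 2-cell embryos and 5142 FPKM in MII oocytes. In bulk samples fewer cells of a type and less RNA per cell cannot be told apart. Of 22 cumulus and granulosa markers 2 were measured, Cyp19a1 at 3.61 FPKM in early 2-cell embryos and 8.28 FPKM in MII oocytes, and Serpine2 at 30.6 FPKM in early 2-cell embryos and 90.9 FPKM in MII oocytes, while the granulosa marker Ereg was listed at 0 in both. The 22 summed to 35.9 FPKM in early 2-cell embryos and 103 FPKM in MII oocytes. Of 20 sperm markers 3 were measured, Prm2 at 2.13 FPKM in early 2-cell embryos and 3.69 FPKM in MII oocytes, Odf2 at 38.8 FPKM in early 2-cell embryos and 47.3 FPKM in MII oocytes, and Ldhc at 1.23 FPKM in early 2-cell embryos and 1.12 FPKM in MII oocytes, with a median of 0.28 aligned and -0.28 unscaled. The protamine Prm1 and the transition protein Tnp1 were listed at 0 in both, and the 20 summed to 43.9 FPKM in early 2-cell embryos and 53.3 FPKM in MII oocytes. None of the 10 blood markers reached 1 FPKM in either library (0 measured), and they summed to 2.02 FPKM in early 2-cell embryos and 0.979 FPKM in MII oocytes. The part of these markers in the differences was not tested.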

How the data were processed

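RNA was measured in 7 of the 116 samples of the series, and the other 109 were not analysed here. Per the labels' protocols, total RNA of about 100 embryos or oocytes was depleted of ribosomal RNA. The authors deposited FPKM for each gene. TopHat2 2.1.1, Cufflinks 2.1.1, CASAVA 1.8 and build mm9 are named, with no role given, per the submitters' processing notes. How multi-mapped reads and strand were handled is not given in the sources used here. Early 2-cell and MII each had a table of their own, normalized separately. In the MII table the values stand under a heading that is also the title of a chromatin sample, and were taken as MII total RNA because GEO lists the table with that sample alone. No value column lacked a sample (0). Read depth is unknown, since the low values show no steps of whole reads, and no interval or floor was given.

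Rows of a shared symbol were summed. Genes at 1 FPKM or more in either library were compared on log2(FPKM + 1), a pseudocount of 1 FPKM, unscaled and after the alignment described above, over genes at 5 FPKM or more in both. With 1 library per group no test was made, and the 2-fold line of 1 on that scale was used in place of one. The procedure was tested on simulated data. The members and the 32 gene lists were chosen with earlier results of these data known. The genes named are the 15 largest changes each way at 10 FPKM or more, the 5 largest small RNAs each way, the 10 most abundant of each library, and from each list the 6 most abundant with its largest increase and decrease. Promoters (RefSeq, GRCm38.p6) were matched by symbol and searched for 9 motifs on both strands. Gene order came from the same RefSeq release, with no coordinates used. Calculations used Python 3.11.15, numpy 2.4.6, pandas 2.3.3 and matplotlib 3.10.9.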

Additional observations from a re-analysis of the deposited data

How the results depend on the processing

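No paired analysis was possible because each group held 1 library, and for the same reason no replicate could be left out. The planned split by protein length was not run, because no protein table was used here. Against 918 genes higher and 1597 lower aligned and 429 and 3075 unscaled, a pseudocount of 5 FPKM gave 353 and 760 aligned and 127 and 1531 unscaled, as its construction shrinks differences of low genes. A filter of 5 FPKM kept 7193 genes and gave 479 higher aligned and 176 higher unscaled. Scaling both libraries to a sum of 1000000 gave 940 higher against 429 unscaled, and 2265 lower. Counts stayed within 1.5 times with a pseudocount of 0.1, with no filter, without small RNAs, with the highest row per symbol and with alignment over genes at 20 FPKM or more, and no named gene that differed by 2-fold changed direction. List medians near 0 changed sign: the G1/S list stood at 0.10 with the 5 FPKM filter, the chromatin list at -0.000378 with that filter and -0.0715 with the 20 FPKM alignment, and the glucose, lactate and pyruvate list at 0.0413 with no filter. The cause was not tested. The 2-cell list median stood at 4.58 with a pseudocount of 0.1, 0.86 with 5 and 3.90 with the 5 FPKM filter, which left 7 of its genes. The small RNA median stood at 2.90 with a pseudocount of 0.1, 0.48 with 5 and 0.80 with no filter. The median of the snoRNA host and long noncoding RNA list was 0.16 with no filter, over 24 genes. Of 243 named genes, 39 moved by more than 0.59, the SD between the ICM libraries, with a pseudocount of 0.1 and 52 with 5. Sizes of change of genes at a few FPKM are therefore limited by the pseudocount and unknown depth.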

Other observations

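Lists not described above held their own contrasts. Ribosome biogenesis genes of the nucleolus had 26 of 91 measured lower and 4 higher aligned, and 42 and 1 unscaled, with a median of -0.41 aligned. Rpf2, which loads the 5S particle onto the large subunit, stood at 0.355 FPKM in early 2-cell embryos and 6.36 FPKM in MII oocytes, and Noc4l at 25.9 FPKM in early 2-cell embryos and 90.1 FPKM in MII oocytes. Rrs1, which acts with Rpf2, was the largest increase, with 6.32 FPKM in early 2-cell embryos and 1.43 FPKM in MII oocytes. Partners in the 5S particle thus differed in direction. Splicing factors had 16 of 63 lower (25.4%) and 2 higher aligned, and 27 and 1 unscaled, against backgrounds of 15% and 28.8% lower. Snrpd2, of the Sm ring, stood at 1.44 FPKM in early 2-cell embryos and 38.3 FPKM in MII oocytes, and Lsm7, of the related Lsm ring, at 45.9 FPKM in early 2-cell embryos and 22.3 FPKM in MII oocytes. Lsm7 was listed at 0 in the PN5 library and in both late 2-cell libraries, so its values are uncertain. Nuclear pore and import genes had 4 of 48 lower and 0 higher aligned, and 12 and 0 unscaled. The share lower aligned, 8.33%, lies below the background of 15%. Ndc1, a membrane nucleoporin, stood at 2.31 FPKM in early 2-cell embryos and 17.6 FPKM in MII oocytes. Of 33 tRNA synthetases 5 were lower and 1 higher aligned, and 10 and 1 unscaled. Both shares of lower genes lie near the backgrounds of 15% and 28.8%. The 1 higher gene was Lars2, whose rows often collect ribosomal reads. Rars stood at 4.57 FPKM in early 2-cell embryos and 45.0 FPKM in MII oocytes, and Iars at 24.3 FPKM in early 2-cell embryos and 88.1 FPKM in MII oocytes.

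Glucose, lactate and pyruvate genes had 2 of 28 lower and 3 higher aligned, and 8 and 0 unscaled. The backgrounds are 15% lower and 8.6% higher aligned, and 28.8% lower and 4.02% higher unscaled. The filter was passed through the early 2-cell library alone by 3 of the 28, Ldha among them. Mpc2, of the mitochondrial pyruvate carrier, stood at 3.73 FPKM in early 2-cell embryos and 22.6 FPKM in MII oocytes, and Ldha at 2.03 FPKM in early 2-cell embryos and 0.521 FPKM in MII oocytes. Ldhb, the form of lactate dehydrogenase abundant in the egg, stood at 562 FPKM in early 2-cell embryos and 1267 FPKM in MII oocytes, within 2-fold aligned. G1/S genes had 6 of 39 lower and 4 higher aligned, and 12 and 1 unscaled, shares of lower genes near the backgrounds of 15% and 28.8%. The filter was passed through the MII library alone by 5 of the 39, and through the early 2-cell library alone by 1. Orc5, of the origin recognition complex, stood at 31.8 FPKM in early 2-cell embryos and 153 FPKM in MII oocytes, and Tyms, which makes thymidylate, at 0.487 FPKM in early 2-cell embryos and 5.02 FPKM in MII oocytes. The licensing factor Cdt1 stood at 102 FPKM in early 2-cell embryos and 85.5 FPKM in MII oocytes. Lineage factors had 4 of 14 measured higher and 1 lower aligned, and 0 and 3 unscaled, with a median of 0.25 aligned and -0.14 unscaled. The filter was passed through the early 2-cell library alone by 2 of the 14, and through the MII library alone by 1. Fgfr2, a receptor of the later trophectoderm, was the 1 lower gene aligned, with 3.39 FPKM in early 2-cell embryos and 14.0 FPKM in MII oocytes. Host genes of small nucleolar RNAs and other long noncoding RNAs had 6 of 11 measured higher and 1 lower aligned, and 3 and 2 unscaled, with a median of 1.04 aligned that was 0.16 over 24 genes with no filter. The backgrounds are 8.6% and 4.02% higher. The higher genes included Rpph1, Rmrp and Terc, which are small RNAs described above and not host genes. Without small RNA symbols the aligned median was 0.57 over 8 genes. The level filter was passed through the early 2-cell library alone by 2 of the 11. Snhg6 was the 1 lower gene aligned, at 1.37 FPKM in early 2-cell embryos and 11.0 FPKM in MII oocytes.

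Of 809 higher genes found in the RefSeq gene order, 148 (18.3%) lay beside another higher gene, in 65 runs of which 10 held 3 or more genes. Of 1510 lower genes found, 297 (19.7%) lay beside another lower gene, in 142 runs. The gene order held 22705 symbols, and the share that equally many genes of that order would give was not calculated. No clustering can be read from these shares. Runs also hold near-identical copies, and small RNA symbols beside other genes, as in the run of Snhg10, Scarna13 and Mir3069. The longest run held 7 genes among the higher and 5 among the lower (Cntn1, Pdzrn4, Gxylt1, Yaf2 and Zcrb1). Among promoters with an entry, TGATTNAAT was in 8 of the 523 of higher genes (1.53%) and 5 of the 1193 of lower genes (0.419%). Its share over all genes compared was 0.466%. Of the 8 higher genes, 5 were the 2-cell list genes counted above, among them near-identical copies. CCGGAAG (an ETS-type site) was in 15.1% of the promoters of higher genes and 24.7% of those of lower genes. CCGGAAG was in 25 of 64 promoters of ribosomal protein genes (39.1%) and 21.4% of those of all genes compared.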
